A study of Arabidopsis thaliana with 9 samples.

Results

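The 5 loci described here, AT4G29780, AT4G27652, AT4G27654, AT4G27657 and AT1G76600, belong to the Arabidopsis thaliana genes known as rapidly induced by wounding and touch. They were chosen by their measured differences between ground and flight, already known, for contrasting moves in the 2 in-flight groups. Each was measured by 1 probe set paired with exactly 1 gene, so they are 5 of 16505 genes with such a probe set, within 17481 named probe sets tested. Their levels and their differences between the groups are therefore given as a description, with no test. Tests are given only for other genes. The lists of such genes were also drawn up with earlier results of these data known, so their counts are not independent evidence.

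Plants respond to touch, bending and cutting within minutes: calcium enters the cytosol, and a set of transcripts accumulates and then declines quickly. The set includes genes of transcription factors, ubiquitin ligases, calmodulin-like calcium sensors and small proteins of unknown function, and many of its members also respond to microbial elicitors, cold and other stresses. Such transcripts are typically short-lived.

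RNA from whole roots was measured on 9 arrays, with 3 each from the first-actuated in-flight tube, the last-actuated in-flight tube and the ground control tube. All seedlings were 10 days old, in the Wassilewskija (WS) background, grown in continuous light and fixed in RNAlater, and all carried pCaMV35S:14-3-3κ:GFP, a fusion of a 14-3-3 regulatory protein to GFP under the constitutive CaMV 35S promoter. No untransformed plants were among these 9 arrays, so every group shares the transgene. Per the labels' protocol, the first in-flight Kennedy Space Center Fixation Tube was actuated in the low-altitude acceleration of an F-104 jet. The last was actuated once the parabola was over, with its 4 g climb of roughly 30 s and its microgravity of some 10 s, whereas the design text describes in-flight fixation only after the return to level flight. Pockets of a flight suit held the in-flight tubes, and a person held the ground tube. The 3 arrays of a group came from roots of a single tube, so p-values cover only the variation among root pools that shared a tube, and the effects of tube and flight stage cannot be told apart.

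Values are log2 levels per probe set, on a scale where the array medians lay between 3.27 and 3.35, and a difference of 1 is a doubling of the signal. In whole roots, fewer cells of a type and less RNA per cell cannot be told apart. Of 19 root marker genes listed, 5 had a named probe set. The log2 of their summed signal was 12.74 to 12.83 in first-actuated roots, 12.70 to 12.87 in last-actuated roots and 12.79 to 12.89 on the ground. PYK10, a beta-glucosidase gene of root endoplasmic reticulum bodies, was the brightest of them, at a mean of 12.40 in first-actuated, 12.19 in last-actuated and 12.38 in ground roots. It therefore weighed most in this sum, which says little of the others. Of the 5, 4 had a positive difference when last-actuated roots were set against first-actuated ones, with a median of 0.35 over the 5, against -0.00 over all probe sets. By limma 1 was called higher (20%), where 3.58% of all probe sets tested were called higher and 3.15% lower. EXPA7, an expansin gene of root hairs, was at 4.53, 4.87 and 4.75 in first-actuated roots, 5.36, 5.02 and 5.51 in last-actuated roots and 5.29, 5.09 and 5.54 on the ground. Its first-actuated arrays lay below all others, and it missed the threshold against ground (-0.59 ± 0.15, adjusted p = 0.0584) and between the in-flight groups (0.58 ± 0.15, adjusted p = 0.0527). EXPA18, another expansin gene of the list, did not share this, with means of 6.09 in first-actuated, 6.13 in last-actuated and 6.09 in ground roots.

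AT4G29780, annotated as a nuclease-like protein with no established role, had the plainest opposite moves. Its level was 8.73, 8.70 and 8.86 on the first-actuated arrays, 6.83, 6.62 and 6.92 on the last-actuated arrays and 7.48, 7.68 and 7.33 on the ground arrays. No array of a group overlapped with another group, and the order was first-actuated, ground, last-actuated. The level was higher in first-actuated roots than on the ground by 1.26 ± 0.12 (limma SE, n = 3 arrays a group), which is 2.4-fold, and lower in last-actuated roots by log2 -0.71 ± 0.12, at 0.612 of the ground level. Between the in-flight groups, last-actuated roots differed from first-actuated roots by log2 -1.97 ± 0.12, a level 0.255 times as high.

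AT4G27652, AT4G27654 and AT4G27657 are immediate neighbours on chromosome 4, with no other gene of the RefSeq table between them. No function is assigned to their proteins here. AT4G27654 had 5.93, 5.72 and 5.64 in first-actuated roots, 3.94, 3.49 and 3.45 in last-actuated roots and 5.07, 5.34 and 5.00 on the ground. Its 3 groups were separate, and the last-actuated arrays came close to the array medians. It differed from ground by 0.62 ± 0.15 in first-actuated roots and by -1.51 ± 0.15 in last-actuated roots. The difference between last-actuated and first-actuated roots was -2.13 ± 0.15 on the log2 scale, at 0.228 of the first-actuated level, which ranked 12 by size among the 17481 probe sets in that comparison.

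The level of AT4G27652 was 8.55, 8.38 and 8.43 in first-actuated roots, 7.41, 7.23 and 7.62 in last-actuated roots and 7.87, 8.07 and 7.67 on the ground. The groups kept the order of AT4G27654, but the gap between the highest last-actuated array and the lowest ground array was only 0.05, less than the SD of either group (0.19 and 0.20). The differences were 0.58 ± 0.13 for first-actuated roots and -0.45 ± 0.13 for last-actuated roots, each against ground, and -1.03 ± 0.13 for last-actuated against first-actuated roots.

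AT4G27657, the third of the neighbours, did not share the low level after the parabola. It stood at 8.72, 8.56 and 8.55 in first-actuated roots, 7.66, 7.69 and 7.55 in last-actuated roots and 7.69, 7.62 and 7.20 on the ground. First-actuated arrays lay above all others, while the last-actuated and ground arrays overlapped. Against ground the difference was 1.1 ± 0.13 in first-actuated roots, 2.14-fold, and 0.13 ± 0.13 in last-actuated roots, which turned to -0.02 without ground replicate 3. Last-actuated roots differed from first-actuated roots by -0.97 ± 0.13. Adjacent genes therefore had differences against ground of -1.51 and 0.13 in last-actuated roots.

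AT1G76600, a member of the PADRE family of plant stress-responsive proteins, ran the other way in first-actuated roots. Its level was 6.53, 6.41 and 6.54 in first-actuated roots, 7.09, 7.06 and 7.09 in last-actuated roots and 7.50, 7.74 and 7.67 on the ground. All 3 groups were separate, with the ground highest and the first-actuated group lowest. The difference against ground was -1.14 ± 0.09 in first-actuated roots, at 0.453 of the ground level, and -0.56 ± 0.09 in last-actuated roots, at 0.679 of it. Last-actuated roots were higher than first-actuated roots by 0.58 ± 0.09, 1.5-fold.

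**Figure D1:**
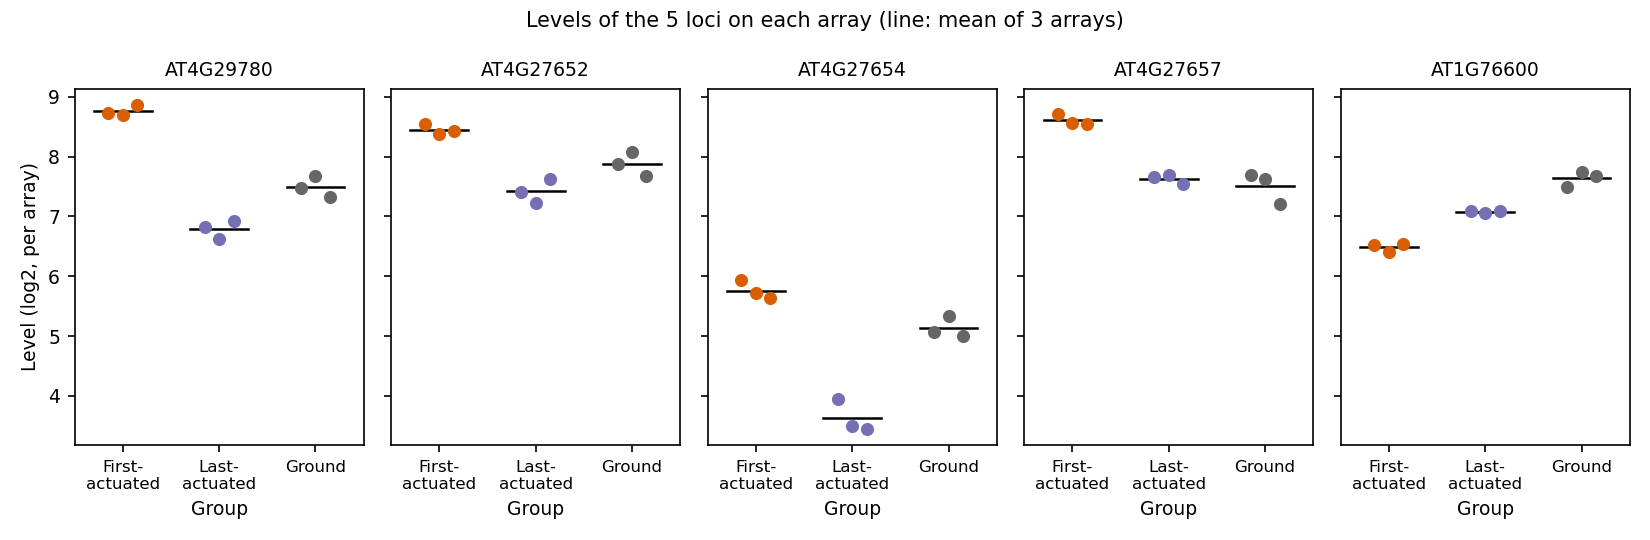
Level on the log2 scale (y axis) of each of the 5 loci on each array, by group (x axis), with a line at the mean of the 3 arrays. First-actuated arrays are the highest for the 4 chromosome 4 loci and the lowest for AT1G76600, and last-actuated arrays are the lowest for AT4G29780, AT4G27652 and AT4G27654.

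The 5 loci thus did not follow 1 pattern. Opposite signs against ground in the 2 in-flight groups, with no overlap of arrays, were seen in AT4G29780, AT4G27652 and AT4G27654, but not in AT4G27657 or AT1G76600. Against ground, arrays did not overlap for 5 of 5 loci in first-actuated roots, where 20.4% of all probe sets tested did not overlap, and for 4 of 5 in last-actuated roots, against 16.6% of all. Between last-actuated and first-actuated roots they did not overlap for 5 of 5 loci, against 21.8% of all. These shares follow from how the loci were picked. The median difference of the 5 loci was 0.62 for first-actuated against ground, -0.56 for last-actuated against ground and -1.03 for last-actuated against first-actuated roots, where the median over all probe sets lay within 0.01 of 0. Both comparisons with ground share the same ground arrays.

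**Figure D2:**
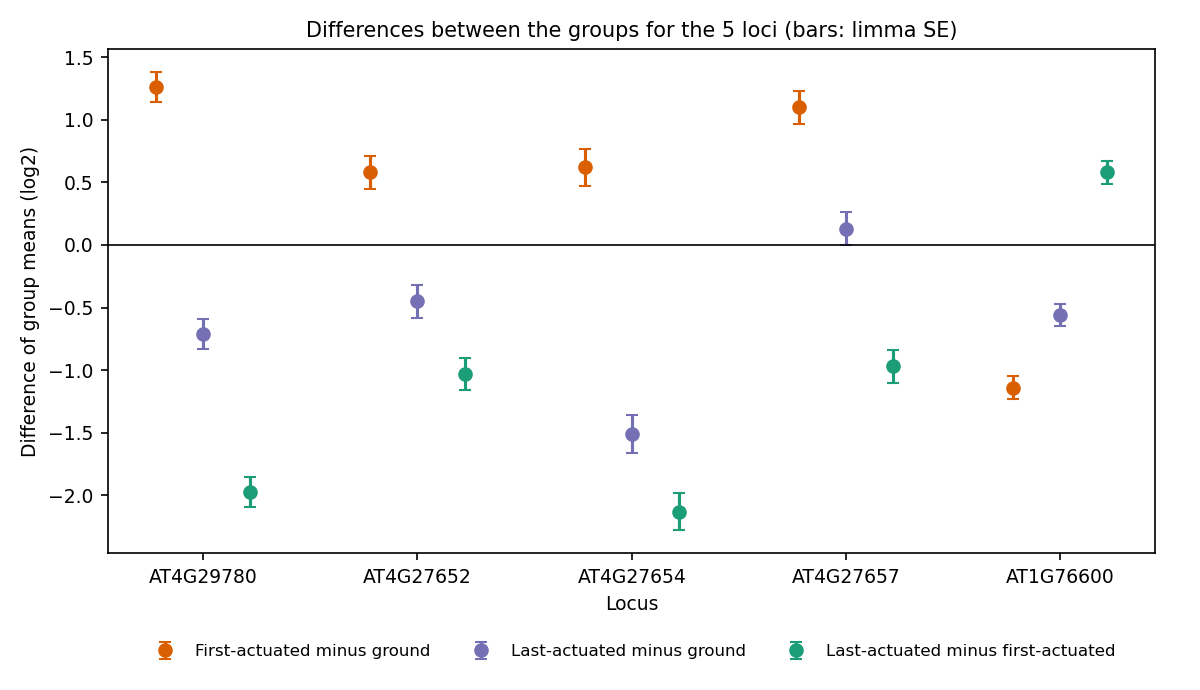
Difference of group means on the log2 scale (y axis) for each of the 5 loci (x axis) in the 3 comparisons, with bars at ± 1 limma SE. AT4G29780 and AT4G27654 have the lowest values between last-actuated and first-actuated roots, -1.97 and -2.13, while AT1G76600 is at 0.58.

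Within the ground group the arrays also differed in a shared way, though the loci were chosen on contrasts that include these arrays. Ground replicate 2 had the highest level of its group for 4 of the 5 loci, and ground replicate 3 the lowest for 4 of them. For AT4G29780 the deviations from the ground mean were -0.01, 0.18 and -0.17 in replicates 1, 2 and 3, and for AT4G27652 they were 0.00, 0.20 and -0.20. Among 61 other rapid-response loci, described next, ground replicate 2 was the highest for 38 (62.3%), against 34% of all probe sets tested, and replicate 3 the lowest for 32 (52.5%), against 29.8% of all. Among last-actuated arrays, replicate 2 was the lowest for 3 of the 5 loci and for 33 of the 61 (54.1%), against 33.4% of all. The arrays given are among those furthest from the share of all. Others lay near it, such as last-actuated replicate 1, the highest for 36.1% of the 61 against 35.8% of all. These loci vary together within an array, so the counts are a description of these arrays. Over the 5 loci the SD between arrays of a group was 0.07 to 0.15 in first-actuated, 0.01 to 0.27 in last-actuated and 0.12 to 0.27 in ground roots.

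To set the 5 loci among genes of the same response, 131 other loci known for fast induction by wounding, touch or elicitors were listed, with earlier results for some of them, PUB24 and AT1G77640 included, already known, and 61 had a named probe set. In first-actuated roots 8 rose and 2 fell against ground (13.1% and 3.28%), where 2.25% of all probe sets tested were called higher and 2.64% lower by limma at an adjusted p under 0.05. AT3G62260, a protein phosphatase 2C gene, had 8.02, 7.80 and 8.15 in first-actuated roots and 6.88, 6.80 and 6.42 on the ground, a rise of 1.29 ± 0.14 (adjusted p = 0.000705). AT3G23170 rose by 1.03 ± 0.09 (adjusted p = 0.000241). PUB24, the gene of a U-box ubiquitin ligase that restrains immune signalling, rose by 1.04 ± 0.13 (adjusted p = 0.00195), and AT1G77640, an AP2/ERF transcription factor gene, fell by 0.86 ± 0.11 (adjusted p = 0.00217). The median of the list was 0.10, against 0.01 over all probe sets. The 10 calls became 6 without ground replicate 1 or without ground replicate 3, and 5 when only the compared groups were fitted.

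In last-actuated roots 2 of the 61 rose and 2 fell against ground (3.28% each), where 0.927% of all probe sets were called higher and 0.881% lower. AT3G23170 was again higher, by 0.85 ± 0.09 (adjusted p = 0.000909), with 7.70, 7.78 and 7.78 in last-actuated roots and 6.82, 7.00 and 6.90 on the ground. AT1G77640 rose by 0.70 ± 0.11 (adjusted p = 0.0117), and PUB24 fell by 0.83 ± 0.13 (adjusted p = 0.0119). AT2G26190, of a calmodulin-binding protein family, fell by 0.51 ± 0.10 (adjusted p = 0.0314). The list median was -0.04, against 0.00 over all probe sets. Without ground replicate 2 or last-actuated replicate 2, and when only the compared groups were fitted, 2 loci rose and 0 fell by limma. The decrease of PUB24 missed the threshold in each of those fits and without last-actuated replicate 3 (adjusted p up to 0.061), and that of AT2G26190 missed it in 8 of 16 alternative fits (adjusted p up to 0.116).

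Between last-actuated and first-actuated roots 4 of the 61 were higher and 14 lower (6.56% and 23%), where 3.58% of all probe sets were called higher and 3.15% lower. PUB24 was at 7.01, 6.57 and 6.58 in last-actuated roots and 8.58, 8.53 and 8.68 in first-actuated roots, a decrease of log2 -1.88 ± 0.13 (adjusted p = 4.89e-05). ORA47, an AP2/ERF gene known for switching on jasmonate synthesis, was lower by log2 -0.98 ± 0.12 (adjusted p = 0.00112), and STZ, which encodes a zinc finger transcriptional repressor, by log2 -0.87 ± 0.12 (adjusted p = 0.00203). The ORA47 probe set was dim in last-actuated roots, at 2.94, 2.89 and 3.18, below the array medians. AT1G77640 went the other way, at 5.56, 5.88 and 5.66 in last-actuated roots and 3.95, 4.22 and 4.27 in first-actuated roots, higher by 1.56 ± 0.11 (adjusted p = 5.09e-05). The list median was -0.18, against -0.00 over all probe sets. Without last-actuated replicate 3, 1 was called higher and 10 lower.

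**Figure D3:**
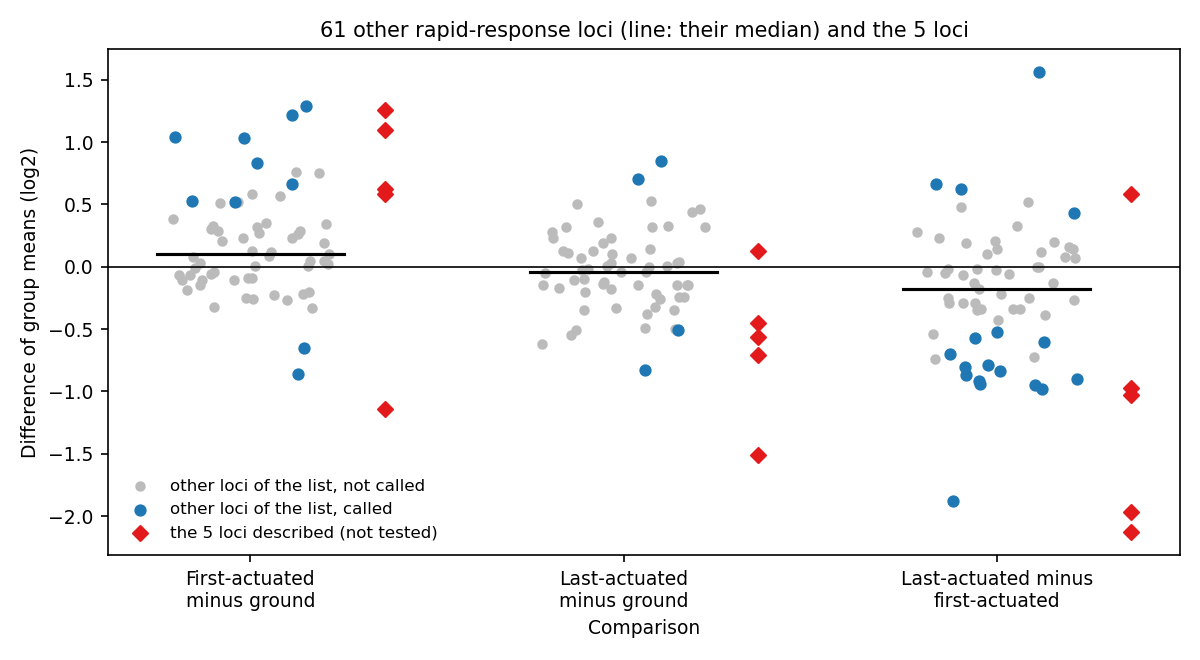
Difference of group means on the log2 scale (y axis) in each comparison (x axis) for 61 other rapid-response loci, called (blue) or not called (grey) by limma, with a line at their median, and for the 5 loci described (red diamonds, not tested). Between last-actuated and first-actuated roots 14 of the 61 are called lower and 4 higher.

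Calcium sensing and jasmonate are the 2 signalling routes best known upstream and downstream of these transcripts. Of 29 touch and calcium genes listed, 12 were measured, of which 3 also stand in the list of 61. In first-actuated roots 0 rose and 1 fell (8.33%) against ground, where 2.25% of all probe sets were called higher and 2.64% lower. The 1 was AT3G47480, of the calcium-binding EF-hand family (-0.49 ± 0.12, adjusted p = 0.0488, which missed the threshold in 10 of 15 alternative fits). Its probe set was dim, with means of 2.28 in first-actuated and 2.77 in ground roots, below the array medians. Of the 12, 8 had a positive difference here, and 5 were at an unadjusted limma p under 0.05. All of those 5 but AT3G47480 were higher than on the ground. In last-actuated roots 0 of the 12 were called against ground by limma, where 0.927% of all probe sets were called higher and 0.881% lower. In that comparison 4 of the 12 were at an unadjusted p under 0.05. The share of all probe sets at such a p was not counted for either comparison with ground. Between last-actuated and first-actuated roots CML37, a calmodulin-like gene, was the sole call, lower at 4.61, 4.52 and 4.50 in last-actuated roots against 4.94, 5.11 and 5.13 in first-actuated roots (-0.52 ± 0.09, adjusted p = 0.00575). CML37 stands in both lists, so this call is already counted among those of the 61. Of 42 jasmonate genes only 4 were measured. OPCL1, the gene of an enzyme of jasmonate synthesis, was the sole call among them, lower by log2 -0.86 ± 0.14 in the last-actuated than the first-actuated roots (adjusted p = 0.0043). Between these groups 3.15% of all probe sets were called lower. In either comparison with ground 0 of the 4 were called by limma. In each, 1 was at an unadjusted p under 0.05, again with no share of all probe sets to set beside it.

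The genes next to the 5 loci along the chromosomes were examined as well, 5 on each side in the order of the RefSeq gene table. Of 30 such genes, 16 had a named probe set. PEL1, directly beside AT4G27652 and known for its part in rescuing stalled ribosomes, was at 6.40, 6.12 and 6.18 in first-actuated roots, 7.16, 6.77 and 7.10 in last-actuated roots and 6.77, 6.93 and 6.88 on the ground. It fell by 0.63 ± 0.12 in first-actuated roots against ground (adjusted p = 0.0171) and was higher by 0.78 ± 0.12 in the last-actuated than the first-actuated roots (adjusted p = 0.00428), the reverse in sign of AT4G27652. The first of these missed the threshold without ground replicate 2 or 3 or first-actuated replicate 2 or 3 (adjusted p up to 0.0643). AT4G27660, directly beside AT4G27657, was dim, with group means of 2.86 in first-actuated, 2.59 in last-actuated and 2.44 in ground roots, and did not pass in any comparison.

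Among the other neighbours, AT1G76590, a PLATZ family transcription factor gene directly beside AT1G76600, fell by 0.65 ± 0.10 in first-actuated roots against ground (adjusted p = 0.00401). That was the direction of AT1G76600. AT4G27680, of the AAA-type ATPase family, rose by 0.88 ± 0.11 in last-actuated roots against ground (adjusted p = 0.00254), and was higher in the last-actuated than the first-actuated roots by 0.59 ± 0.11 (adjusted p = 0.0103). In all, 0 of the 16 rose and 2 fell (12.5%) in first-actuated roots, where 2.25% of all probe sets were called higher and 2.64% lower. In last-actuated roots 1 rose (6.25%) and 0 fell, where 0.927% of all were called higher and 0.881% lower. When last-actuated were compared with first-actuated roots, 2 were higher (12.5%) and 0 lower, where 3.58% of all were called higher and 3.15% lower. With 16 genes measured, each call is 6.25% of them. The calmodulin-like genes CML38 and AT1G76640, also near AT1G76600 and members of the touch list, did not pass in any comparison. Their differences against ground in first-actuated roots were 0.21 for CML38 and 0.92 for AT1G76640.

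**Figure D4:**
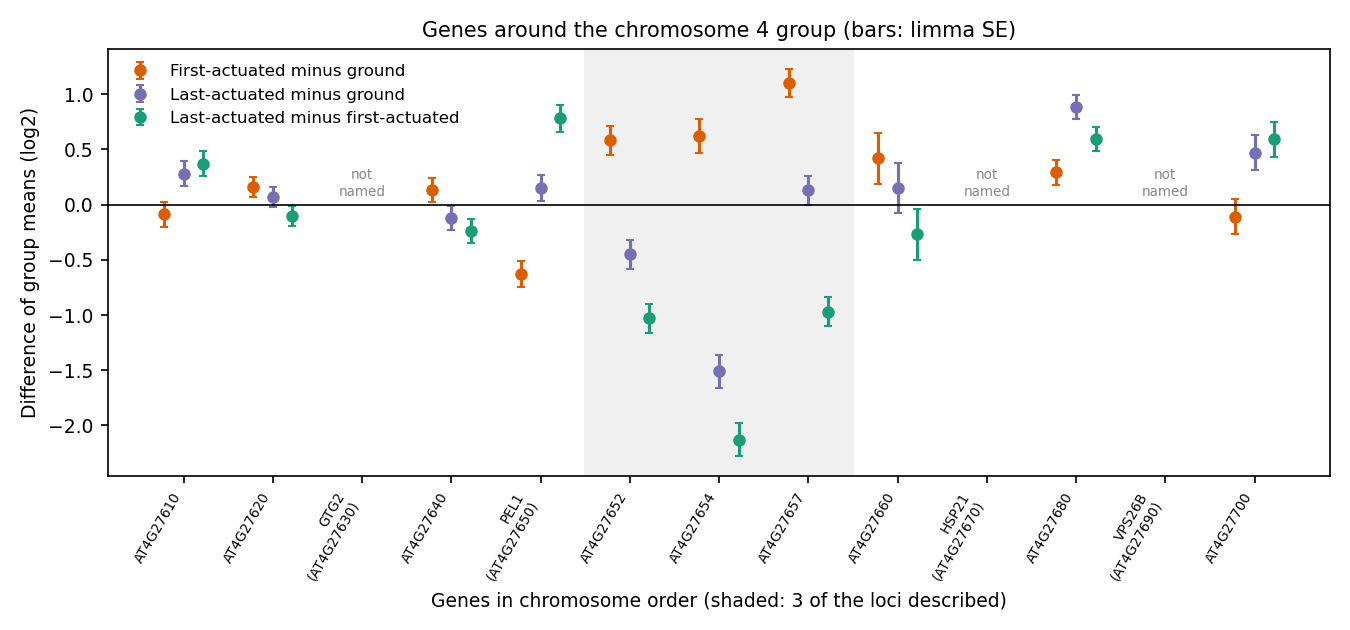
Difference of group means on the log2 scale (y axis, bars at ± 1 limma SE) for genes in chromosome order (x axis) around AT4G27652, AT4G27654 and AT4G27657 (shaded), in the 3 comparisons. Values of -1.03, -2.13 and -0.97 between last-actuated and first-actuated roots stand beside 0.78 for PEL1, and genes without a named probe set are marked.

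For each of the 5 loci, the 3 genes with the most similar values were found by the root mean square difference over the 9 arrays, each value taken minus the ground mean of its probe set. PUB24, AT5G20700 and AT1G66180 were nearest to AT4G29780, at 0.19, 0.19 and 0.20, where the median over 16665 other probe sets was 0.86. AT5G20700, of the FCS-like zinc finger family, was higher than on the ground by 1.15 in first-actuated roots and lower by log2 -0.51 in last-actuated roots. AT3G14595, AT5G43150 and AT4G16260 were nearest to AT4G27652, at 0.12, 0.12 and 0.13 against a median of 0.48. AT3G45700, AT3G19030 and AT5G65990 were nearest to AT4G27654, at 0.35, 0.37 and 0.41 against a median of 0.97, and each was at -0.95 or -0.96 against ground in last-actuated roots, compared with -1.51 for AT4G27654.

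AT3G22550, AT3G47540 and AT1G67920 were nearest to AT4G27657, at 0.16, 0.17 and 0.18 against a median of 0.67. The AT3G22550 probe set was dim in last-actuated (2.57) and ground roots (2.39). HYH, the gene of a light-response bZIP transcription factor related to HY5, was nearest to AT1G76600, at 0.10 against a median of 0.76, followed by AT1G18290 at 0.12 and AT5G53500 at 0.16. HYH differed from ground by -1.11 in first-actuated roots and by -0.62 in last-actuated roots. None of these matches was tested, since the same arrays chose them. Of the 5 loci themselves, AT4G29780 and AT4G27652 were the most alike, at 0.43, and the neighbours AT4G27654 and AT4G27657 differed by 1.00.

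The group means of 1 shoot marker, LHB1B2, stood in the same order as those of AT4G29780, AT4G27652 and AT4G27654. Of 20 shoot markers listed, 5 had a named probe set. The log2 of their summed signal was 8.95 to 9.39 in first-actuated roots, 8.62 to 8.68 in last-actuated roots and 8.59 to 8.74 on the ground. LHB1B2, a light-harvesting protein gene, was at 7.15, 8.45 and 8.11 in first-actuated roots, 5.71, 6.15 and 5.95 in last-actuated roots and 7.22, 6.89 and 6.88 on the ground. It was the sole call of the 5, lower by log2 -1.96 ± 0.28 in the last-actuated than the first-actuated roots (adjusted p = 0.00224). Of all probe sets tested, 3.15% were called lower in that comparison. Against ground LHB1B2 missed the limma threshold in first-actuated roots (0.90 ± 0.28, adjusted p = 0.0974) and in last-actuated roots (-1.06 ± 0.28, adjusted p = 0.102). RCA, the gene of Rubisco activase, did not follow this order, with means of 8.32 in first-actuated, 8.34 in last-actuated and 8.08 in ground roots, and the stomatal lineage genes MUTE, SPCH and FMA were dim in every group, at 1.93 to 2.46. On the single first-actuated array where LHB1B2 lay within the ground range, replicate 1, AT4G29780 was at 8.73, AT4G27652 at 8.55 and AT4G27654 at 5.93. A single array cannot show whether these levels go together. Of the root markers, BGLU22, a beta-glucosidase gene, was higher in the last-actuated than the first-actuated roots by 0.59 ± 0.09 (adjusted p = 0.00379). The part of these tissue markers in the values of the 5 loci was not tested.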

How the data were processed

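RNA from 9 root samples was hybridised to AraGene 1.0 ST arrays. The authors deposited log2 values for 38408 probe sets, and the submitters' processing notes name RMA, oligo, limma, R 4.0.0 and TAIR10, with order and settings not given in the sources used here. RMA as usually run equalises the array distributions, which removes a shift shared by most transcripts. No detection calls, slides or scan dates were used, and the number of arrays limits the precision. Genes were assigned from the platform annotation, with symbols and gene order from a RefSeq table (TAIR10.1): 16722 probe sets had 1 gene (16670 matched), 759 had several and 20927 were unnamed here. With R 4.3.3, limma 3.58.1 (lmFit, then eBayes) was fitted to the 17481 named probe sets with all 9 arrays in 3 groups, and a Benjamini-Hochberg adjusted p under 0.05 was called. The fit was also run on simulated data with independent noise for each probe set, with the outcome not given here. That run cannot show how calls fare where loci vary together within an array. Where a locus had several probe sets, the one with the highest mean was used. The 5 loci and the gene lists, drawn up from textbook knowledge, were chosen with earlier results of these data known. Named genes were the 5 loci, up to 4 called loci of smallest p per list and comparison, the 3 nearest profiles of each locus and measured neighbours. Alternatives were the compared groups alone, a replicate block, all probe sets, probe sets above the median level, median centring, array weights, an intensity trend, and leaving out each array. Protein relatives and promoter motifs were planned but not analysed here.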

Additional observations from a re-analysis of the deposited data

Results flagged for a closer look

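For 3 of the 5 loci every first-actuated array lay above every ground array and every last-actuated array below, which is part of why the loci were picked, so the difference was not tested. Between last-actuated and first-actuated roots it was -1.97 for AT4G29780, -1.03 for AT4G27652 and -2.13 for AT4G27654, on the log2 scale. Among the other genes examined, 2 were called by limma in opposite directions against ground, with the difference between the in-flight groups called as well. It was -1.88 for PUB24 (adjusted p = 4.89e-05) and 1.56 for AT1G77640 (adjusted p = 5.09e-05). PUB24 was higher in first-actuated roots and lower in last-actuated roots than on the ground, and AT1G77640 the reverse. Earlier results for both genes were already known when they were listed, so they are not independent evidence. The decrease of PUB24 against ground missed the threshold in 4 of 16 alternative fits (limma, adjusted p up to 0.061). Both in-flight groups were set against the same ground arrays.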

How the results depend on the processing

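Over 240 recalculated differences of the 5 loci, each stayed within the SD between replicates of its reported value. Many of the 240 could not move, because several fits leave the difference of group means of a probe set unchanged. These were the compared groups alone, the replicate block, all probe sets, probe sets above the median level and the intensity trend. With the replicate block this held because every group had the same replicate numbers. Leaving out an array of the group not compared could not change the difference either. AT4G27657 in last-actuated roots against ground, near 0, ran from -0.02 to 0.22 when single arrays were left out. Counts of calls by limma moved more. Some of the alternatives also change the number of arrays or of probe sets tested, and the cause was not tested. With only the compared groups fitted, 512 probe sets (855 as reported) and 5 list loci were called for first-actuated against ground, and 2 list loci for last-actuated against ground. Over all probe sets, 1794 were called between the in-flight groups (1177 among the named). Leaving out single arrays gave 549 to 807 probe sets and 6 to 10 list loci for first-actuated against ground, 179 to 333 and 2 to 4 for last-actuated against ground (316 and 4 as reported), and 724 to 1119 and 11 to 17 between the in-flight groups, where 18 list loci were reported. For the calcium and jasmonate lists together, with 1, 0 and 2 calls in the 3 comparisons, it gave 0 to 1, 0 to 1 and 2 to 4. For first-actuated against ground their 1 call became 0 with the replicate block, all probe sets, probe sets above the median level or array weights. Neighbour genes had 2 calls for first-actuated against ground (1 to 3 without single arrays) and 2 between the in-flight groups (2 to 5, and 4 with median centring or array weights). Arrays of the same replicate number did not deviate together (correlations of -0.119 to 0.057 over 9 pairs). Pairs of different number had -0.086 to 0.084 over 18 pairs. No pairing by number was seen, so none was used in the reported fit, but these correlations cannot exclude it. With the replicate block, 723, 247 and 1035 probe sets and 9, 4 and 16 list loci were called in the 3 comparisons. The planned counts of protein relatives and promoter motifs were not run.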

Other observations

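Further loci of the rapid-response list that passed limma lie outside the naming rule and were picked after their values were seen. AT4G28140, an AP2/ERF gene, rose by 1.22 ± 0.23 in first-actuated roots against ground (adjusted p = 0.0153), with means of 3.64 in first-actuated roots and 2.42, below the array medians, on the ground. It missed the threshold without ground replicate 3 and when only the compared groups were fitted. AT1G05575, AT3G57450 and AT1G18740 were lower in the last-actuated roots than the first-actuated roots by log2 -0.57 ± 0.09, -0.80 ± 0.14 and -0.79 ± 0.12, and passed in all 16 alternative fits of that comparison. AT1G25400 ran opposite to most of the list, at -0.65 ± 0.13 in first-actuated roots against ground and 0.62 ± 0.13 in last-actuated against first-actuated roots, and missed the threshold in 4 of 16 (adjusted p up to 0.0779) and 5 of 16 alternative fits (adjusted p up to 0.0743) of those comparisons.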
